A study of Drosophila melanogaster with 18 samples.

Results

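The genes described here are those for the proteins of the cytoplasmic ribosome. They were taken as every protein-coding gene of the fly annotation whose symbol starts with RpL or RpS followed by a digit, P or a, so that the mitochondrial ribosomal proteins (mRpL and mRpS) were left out. The rule found 92 of 13986 protein-coding genes, of which 54 code for proteins of the large subunit and 38 for proteins of the small subunit. They lie on 2L (19 genes), 2R (21), 3L (14), 3R (23), 4 (1) and X (14), and are 304 to 4677 bp long, with a median of 1315 bp against 2175 bp for the other 13894 protein-coding genes. Among the 92 are 14 genes that count by name as second copies of a ribosomal protein, such as RpL10Aa beside RpL10Ab.

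Chromatin of mitotic embryos was compared with that of interphase embryos by ChIP-seq, which sequences the DNA bound by an antibody. All embryos were wild type (strain yw), 1 to 2.5 h old by the labels (the study's methods give a later start of the collection), and were sorted by staining for H3S10ph, a histone mark of mitotic chromosomes, with 1000 whole embryos per sample, so that no tissue or cell type was separated. GAF (GAGA factor, the product of Trl) was precipitated from 2 mitosis and 3 interphase samples, and histone H4 acetylated at lysine 8 (H4K8ac) from 2 mitosis and 2 interphase samples, each with its own input. The deposited lists give one set of peak positions per antibody and stage, with replicates averaged beforehand and no score or read number, so neither a spread between replicates nor a depth can be given for any value below.

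Ribosomal protein genes are among the most strongly expressed genes of any growing cell, because every ribosome needs a full set of these proteins. In flies many of them start at a pyrimidine-rich initiator called TCT in place of the usual initiator, and the factors Dref (which binds the DRE), M1BP (which binds Motif 1) and TRF2 have been placed at their promoters. H4K8ac is a mark of active promoters and enhancers, and GAF binds GA-rich sequence and opens chromatin.

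The starts of 8 members are printed to show the TCT initiator where it occurs, for 3 pairs of copies (the second copy first) and for RpL24 and RpS26. Each run has 30 bases of the sense strand, from 15 bases before the first base of the canonical transcript to 14 after it (dm6). Capitals mark any of the 4 words searched for as TCT, namely CCTTTC and the forms of it with T as the first letter, as the last letter or as both.
RpL10Aa (chr3R:15037351-15037380, plus strand): tacaatacatttcaaattttgtgcttgtag
RpL10Ab (chr3L:11822836-11822865, plus strand): ctaaaaaccgattttcacttCCTTTCtaaa
RpS5b (chr3R:14901549-14901578, minus strand): agctCCTTTTaccgttTCTTTTtcatcctc
RpS5a (chrX:17148250-17148279, minus strand): cacactgccgtaacatgtTCTTTTtcaggc
RpS10a (chr3R:27652745-27652774, plus strand): gaagtttcggtaaatactaatttaagctgg
RpS10b (chrX:19598025-19598054, plus strand): cttcttgtcatcccttccgtttcCCTTTCt
RpL24 (chr2L:13395078-13395107, minus strand): gtttccacttccgtttTCTTTTCTTTTcgt
RpS26 (chr2L:18443214-18443243, minus strand): gggtgcgtccacactatttTCTTTCTTTTc

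In these windows the second copies RpL10Aa and RpS10a hold none of the words, while RpS5b does. The word of RpS10b reaches past the 10 bp around the start within which matches were counted below, and it was not counted. Matches were counted around the outermost start of each gene, so the words of RpL24 and RpS26, at their canonical starts, were not counted there either.

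H4K8ac covered almost the whole family in both stages. A peak lay on or within 1 kb of 87 of the 92 genes in mitosis (94.6%, 95% Wilson interval 87.9 to 97.7%), against 58.4% of the other protein-coding genes. In interphase it was also 87 of 92 (94.6%), against 61.1% of the others. They were the same 87 genes, and no member had H4K8ac in a single stage; of the other genes 55.0% had peaks of both stages. The interval for the family lay above the share of the other genes in each stage, and it also lay above that of the 10206 other genes no longer than the longest member, which was 55.1% in mitosis and 57.2% in interphase. Intervals here cover counting error only, over genes that share one pooled list.

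The same was measured within 100 bp of an annotated transcription start site (TSS). A mitotic H4K8ac peak reached such a site in 83 of 92 genes (90.2%), against 42.3% of the other genes. An interphase peak did so in 85 of 92 (92.4%), against 42.1%. Members with a peak but none at a TSS were RpL7-like, RpS14a, RpS14b and RpS28-like in mitosis, and RpL7A and RpS28-like in interphase. By subunit, 51 of 54 large-subunit genes (94.4%) and 36 of 38 small-subunit genes (94.7%) were acetylated in each stage. All 14 members on X were acetylated in each stage, as were 73 of 78 on the autosomes. All 28 members with a snoRNA gene inside them had H4K8ac in both stages, beside 59 of the 64 without one. The members missing from these counts are the same 5 genes, all of them second copies, described below. They lie on autosomes and hold no snoRNA gene. All 78 members that are no second copies were acetylated, so these splits do not set X or snoRNA hosts apart.

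**Figure D1:**
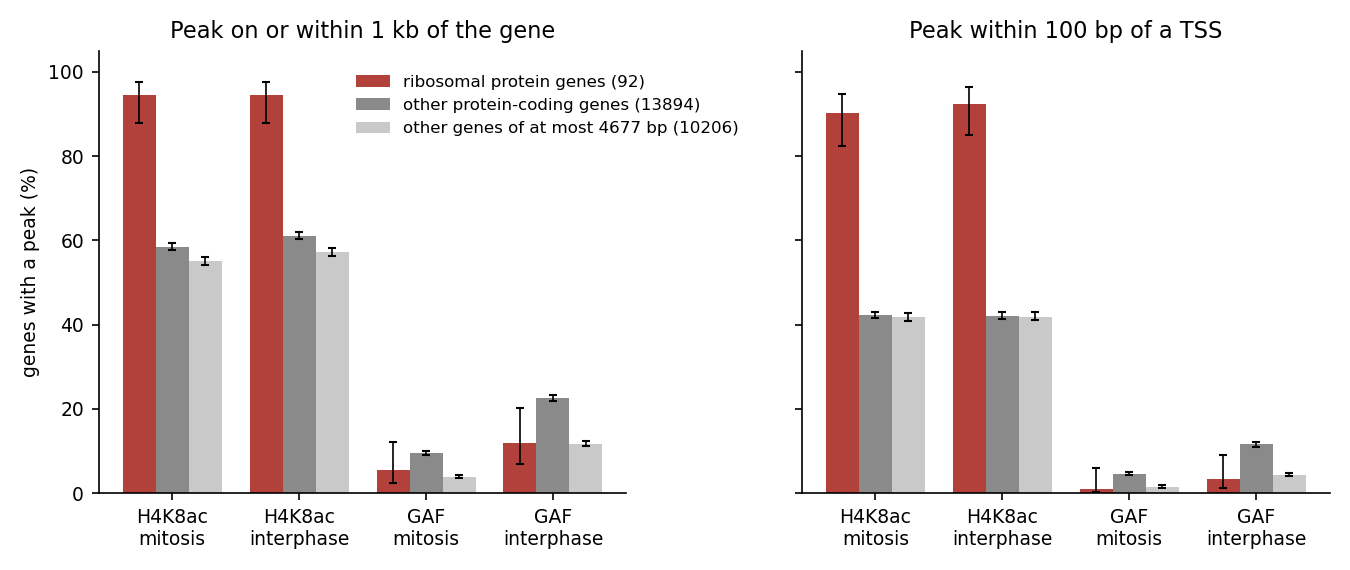
Share of genes (y axis, %) with a peak of each list, on or within 1 kb of the gene (left) and within 100 bp of a TSS (right), for ribosomal protein genes and for 2 sets of other genes. Bars are shares and error bars 95% Wilson intervals: the H4K8ac bars of the family stand at 90.2 to 94.6%, and its GAF bars at 1.09 to 12%.

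The 5 members with no H4K8ac peak in either stage were RpL10Aa, RpL22-like, RpL37-2, RpS10a and RpS5b. All 5 are second copies. They lie at chr3R:15037366-15038149 (RpL10Aa), chr2R:23246610-23247893 (RpL22-like), chr2R:23100057-23100478 (RpL37-2), chr3R:27652760-27653363 (RpS10a) and chr3R:14900432-14901563 (RpS5b), and RpL10Aa, RpL37-2 and RpS10a have a single annotated exon. RpL22-like and RpS5b are known for expression in the germ line, while their partners RpL22 and RpS5a are expressed broadly. Thus 9 of 14 second copies were acetylated in each stage (64.3%, interval 38.8 to 83.7%), against 78 of 78 of the remaining members (interval 95.3 to 100%). The list of second copies was drawn up from gene names with earlier results of these data known. It goes by name alone, and RpL24-like and RpLP0-like are relatives of yeast ribosome assembly factors (Rlp24 and Mrt4) rather than copies that can stand in for the ribosomal protein.

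The distance from the start of each unacetylated copy to the nearest H4K8ac peak varied widely. For RpL10Aa it was 34285 bp in mitosis and 34335 bp in interphase. RpL22-like stood 35693 bp from the nearest peak in mitosis and 14743 bp in interphase, and RpL37-2 9428 bp and 9378 bp. The smallest distances were those of RpS5b, with 1838 bp in mitosis and 1788 bp in interphase, while RpS10a stood at 15610 bp and 4810 bp. The partner genes RpL10Ab, RpL22, RpL37-1, RpS10b and RpS5a all carried peaks: the longest at RpL10Ab measured 4550 bp in mitosis and 5600 bp in interphase, and that at RpS5a 3300 bp in both.

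The 9 acetylated second copies differed among themselves. RpL24-like (1300 bp in mitosis, 3950 bp in interphase), RpL34a, RpLP0-like (5500 and 6750 bp), RpS15Ab (4600 and 4350 bp), RpS19b (3300 and 4600 bp) and RpS28a (1750 and 2000 bp) had a peak over their start in both stages. RpL7-like had its start under a peak in interphase alone (1550 bp), and its mitotic peak of 350 bp, the shortest of any member in mitosis, began 125 bp downstream of it. RpS28-like had no peak on the gene itself in either stage: the mitotic peak of 5600 bp ended 654 bp before its start and the interphase peak of 150 bp, the shortest in interphase, ended 404 bp before it, and these peaks did not overlap. RpS14a and RpS14b, a tandem pair on X coding for near-identical proteins, shared 1 interphase peak of 4700 bp. In mitosis they shared a peak of 2600 bp that began 553 bp into RpS14b, and RpS14a itself was uncovered. Reads from such copies can map to either, and how they were placed is not given in the sources used here.

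Coverage by H4K8ac peaks was highest just downstream of the start and extended to both sides. Among the 87 acetylated members, the position 150 bp downstream of the start was covered in 95.4% in mitosis and 96.6% in interphase. At that position 71.9% and 72.2% of the 7648 other genes with both peaks were covered in mitosis and in interphase. At the start itself coverage of the family was 80.5% in mitosis and 83.9% in interphase, and 1000 bp downstream it was 49.4% and 55.2%. Upstream, 72.4% of members in mitosis and 75.9% in interphase were covered at 500 bp from the start, and 58.6% and 59.8% at 1000 bp. Compact peaks lay mostly downstream of the start: 12 members in mitosis had a peak of at most 1000 bp that overlapped no other protein-coding gene, with median ends at 43.0 and 692 bp downstream of the start. In interphase 12 members had one, from 20 to 741 bp. RpL24 and RpS26, picked after their values were seen, are examples. The RpL24 peak ran from 81 to 630 bp in mitosis and from 31 to 630 bp in interphase, and the RpS26 peak from 27 to 676 bp and from 77 to 676 bp. These distances count from the outermost start of the gene, while the windows printed above centre on the canonical start.

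**Figure D2:**
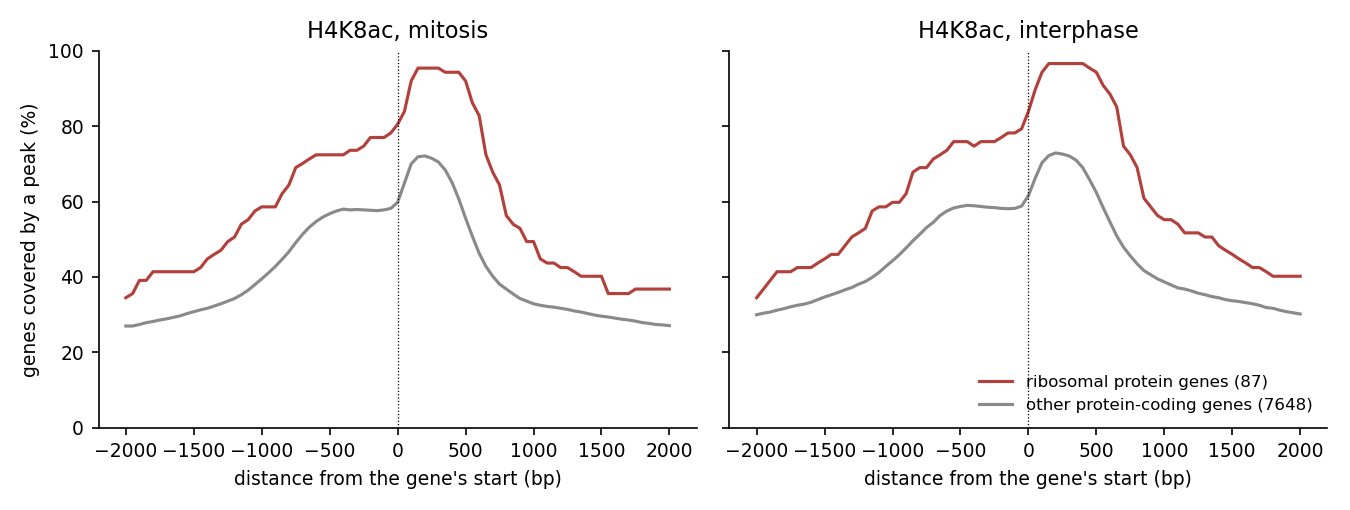
Share of genes (y axis, %) whose position at a given distance from the gene's start (x axis, bp, downstream positive) lies under an H4K8ac peak, in mitosis (left) and interphase (right), for the 87 acetylated ribosomal protein genes and the 7648 other genes with peaks of both stages. The family line is highest at 150 to 300 bp downstream in mitosis (95.4%) and at 150 to 400 bp in interphase (96.6%).

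Most peaks at the family were wider than these and reached into neighbouring genes. The longest peak per member had a median of 3300 bp in mitosis (350 to 23100 bp) and 3850 bp in interphase (150 to 15750 bp), against 2150 and 2350 bp at other acetylated genes. Of the 91 distinct peaks at members in mitosis, 71 overlapped 2 or more protein-coding genes, as did 67 of 89 in interphase. The same was not counted for peaks at other genes, so these counts do not set the family apart. No H4K8ac peaks in either list lay closer together than 2000 bp, so a peak across a gene does not show that every stretch of it was acetylated. RpL32, a common reference gene in transcript measurements, lay under the longest mitotic peak, which spanned 23100 bp and 11 protein-coding genes, among them Sry-alpha, a gene of cellularisation. Its interphase peak was 10300 bp long and spanned 7 genes. The longest interphase peak was that at RpLP0, the base protein of the ribosomal stalk, with 15100 bp in mitosis and 15750 bp in interphase. RpL12 and RpL39 on 2R shared 1 peak in each stage, of 6500 bp in mitosis and 6950 bp in interphase.

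Peak length was similar between stages for most members. The longest peak was longer in mitosis at 32 members, longer in interphase at 50 and equal at 5, and for 62 of 87 it was within 1.5-fold. In mitosis the median member had 67.0% of its gene body covered, and in interphase 86.1%, while other acetylated genes of similar size range (at most 4677 bp) had 30.2% and 36.2%. Of the bases acetylated in either stage within 1 kb of the gene, a median of 91.8% was acetylated in both at members. The median was 76.5% at other genes with both peaks and 81.8% at those of at most 4677 bp. With one pooled list per stage, a difference in length between stages could not be set against replicate error.

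The 3 members with the largest gain in mitosis were RpL32, RpL22 (9650 bp in mitosis, 2450 bp in interphase) and RpS28-like (5600 and 150 bp). The mitotic peak at RpL22 reached upstream over fz3, a Frizzled receptor gene, while the end within RpL22 differed by 50 bp between stages. In the other direction, RpL34a (1000 bp in mitosis, 7150 bp in interphase) and RpL27A (2850 and 7950 bp) were among the members with the largest gain in interphase. The interphase peak at RpL27A overlapped 6 genes and the mitotic one 3, both including mRpL27, which codes for a mitochondrial ribosomal protein. At RpL32 the acetylated bases within 1 kb of the gene were 100% common to both stages, so there the stages differed in how far the peak ran beyond it. At RpL34a 36.1% of those bases were common and at RpS28-like 0%.

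**Figure D3:**
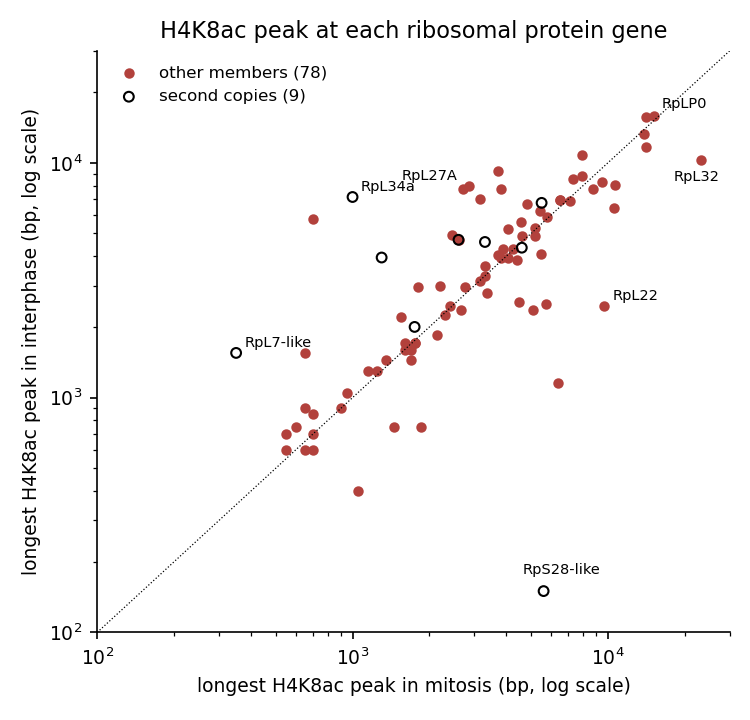
Length of the longest H4K8ac peak at each of the 87 acetylated ribosomal protein genes in mitosis (x axis, bp, log scale) and interphase (y axis, bp, log scale); each point is a gene, open circles are second copies, and the dotted line marks equal length. Points cluster on the line, with RpL34a (1000 and 7150 bp) far above it and RpL22 (9650 and 2450 bp) far below.

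GAF was found near few members. A mitotic GAF peak lay on or within 1 kb of 5 of 92 genes (5.43%, interval 2.34 to 12.1%), against 9.61% of other genes. An interphase GAF peak did so at 11 of 92 (12%, interval 6.81 to 20.2%), against 22.6% of other genes. Members are shorter at the median than other genes. Among other genes of at most 4677 bp the shares were 3.90% in mitosis and 11.7% in interphase, both inside the intervals of the family. No share lower than that of this set was therefore detectable. The set is capped at the longest member and not matched in length to the family, and the part of gene length was not tested. All 5 members with mitotic GAF also had interphase GAF, as did 1316 of the 1335 other genes with mitotic GAF. Peaks of both stages were thus at 5.43% of members, against 9.47% of other genes and 3.73% of those of at most 4677 bp. Altogether 76 of 92 members (82.6%) had H4K8ac in both stages and no GAF peak, against 39.9% of other genes. This combined share was not counted among other genes of at most 4677 bp. Of those shorter genes 88.1% had no GAF peak in either stage, beside 88.0% of members. H4K8ac of both stages was at 51.7% of them, beside 94.6% of members.

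At a TSS, GAF was rarer. Within 100 bp of one, 1 member had a mitotic GAF peak (1.09%, interval 0.192 to 5.90%), against 4.63% of other genes, and 3 had an interphase peak (3.26%, interval 1.12 to 9.15%), against 11.6%. Here too the shares among other genes of at most 4677 bp, 1.57% in mitosis and 4.37% in interphase, fell inside the intervals. The median distance from a member to the nearest GAF peak was 33363 bp in mitosis and 10400 bp in interphase, against 33456 and 11418 bp for other genes of at most 4677 bp.

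The GAF peaks near the family mostly sat at other genes. The 5 mitotic ones included those at RpL10Ab, RpL7-like, RpL7A and RpLP2, and none of the 5 overlapped the gene body of a member. RpLP2, a protein of the ribosomal stalk, was the one whose own TSS was nearest to the peak, with the mitotic peak of 300 bp ending at position -229 bp from the start. The mitotic peak near RpL7-like held a TSS of JhI-21. The peak at RpL7A lay nearest to a TSS of dx (deltex, a regulator of Notch signalling), and that at RpL10Ab lay at -900 to -651 bp from its start, nearest to CG11597.

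The interphase list added RpL4, RpL41, RpL8, RpS19a, RpS28-like and RpS28a. Of the 11 interphase peaks, 8 were nearest to the TSS of another gene, among them mino for RpL4, msn for RpL8, numb for RpS28-like and Mgat2 for RpS28a. The peak of RpS19a, 350 bp long and from 57 to 406 bp downstream of the start, held an annotated TSS of RpS19a itself. The interphase peak of 800 bp at RpL7-like held a TSS of RpL7-like together with those of JhI-21 and CG34164. At RpL41, which codes for the smallest ribosomal protein, the peak ran from 435 bp downstream of the start over the end of the gene.

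**Figure D4:**
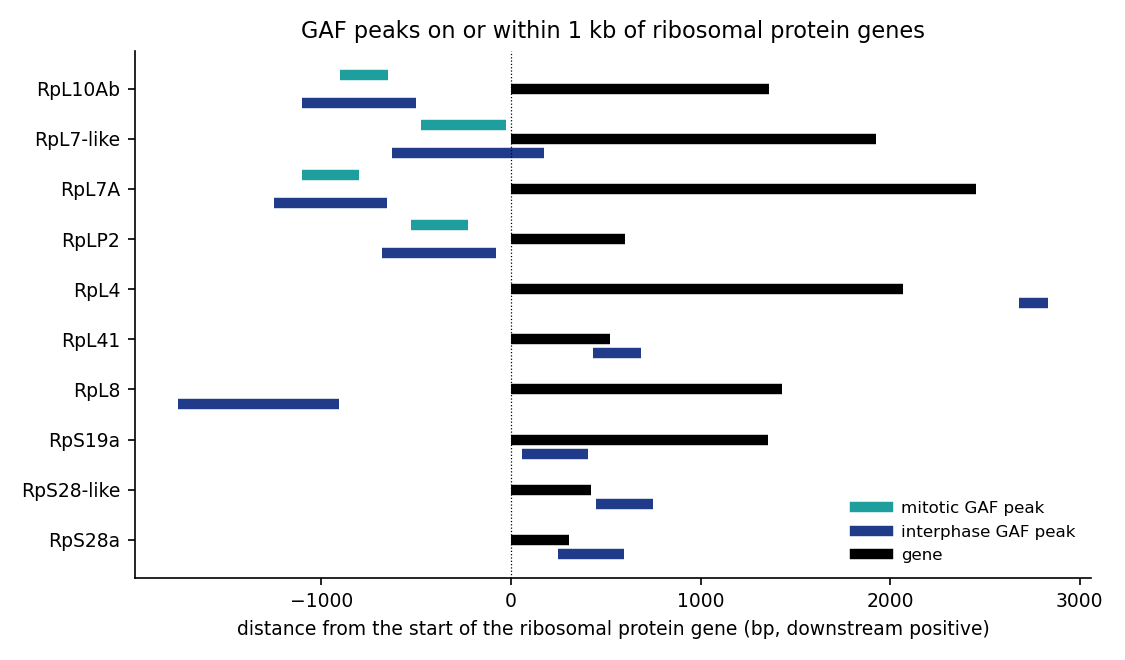
Position of GAF peaks relative to the start of 10 ribosomal protein genes with one (x axis, bp, downstream positive), with the mitotic peak above the gene and the interphase peak below it. The 4 mitotic peaks drawn all lie upstream of the start, each inside the span of an interphase peak; RpS19a and RpL7-like have interphase peaks on the gene's first 406 bp.

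The densest GAGA stretches of some of these peaks are printed as examples. A peak does not show which of its bases GAF bound. Each run is the 30 bases of the peak with most bases in GAGAG, on the plus strand (dm6), from the mitotic peak where there is one and otherwise from the interphase peak. Capitals mark GAGAG or its reverse complement CTCTC.
RpL10Ab (chr3L:11822039-11822068): GAGAGAGcgcaaGAGAGtttctctttgcct
RpL7-like (chr2L:12056038-12056067): GAGAGAGaaacaGAGAGAGAGAGAGaatga
RpL7A (chrX:6534286-6534315): GAGAGAGcGAGAGAGAGAGAGtgagtgagt
RpL4 (chr3R:27925546-27925575): GAGAGcggcatcggcatcccgcaGAGAGaa
RpS19a (chrX:16638111-16638140): tgtgcgaggGAGAGAGAGAGAGAGaaagag
RpS28-like (chr2L:9437386-9437415): gaatctgtgCTCTCTCTCTCtatctatctc
The 5 mitotic peaks held 2 to 7 matches each, counted without overlap. Of the interphase peaks not printed, that of RpS28a held 0, and those of RpL41 and RpLP2 held 2 each. Matches in GAF peaks elsewhere were not counted.

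GAGAG was searched in the promoters of all genes. From 250 bp before to 50 bp from the gene's start, it was present on either strand in 16 of 92 promoters (17.4%, interval 11 to 26.4%), against 29.8% of the promoters of other genes and 25.8% of those of genes of at most 4677 bp. The share in shorter genes lies inside the interval of the family, and the share in all other genes above it. Only RpL13 and RpL4 held 2 matches, and none held more. Of the 16 members with GAGAG, 4 had an interphase GAF peak within 1 kb, as did 7 of the 76 without.

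Of the other promoter words, 3 had shares in the family whose intervals lay above the share in other genes. The DRE core ATCGATA, on either strand, was in 37 of 92 promoters (40.2%, interval 30.8 to 50.4%), against 18.1% of others. The core of Motif 1, searched as GGTCACA on either strand, was in 17 (18.5%, interval 11.9 to 27.6%), against 9.63%. A TCT word on the sense strand within 10 bp of the gene's start was found in 37 of 92 (40.2%, interval 30.8 to 50.4%), against 1.72% of others. None of the words searched contains another. With TCT, 35 of 37 members had H4K8ac in both stages, and without it 52 of 55. The exceptions with TCT were RpL37-2 and RpS5b. Both TCT and the DRE core were in 14 members, and 32 had neither, of which 29 were acetylated in both stages.

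**Figure D5:**
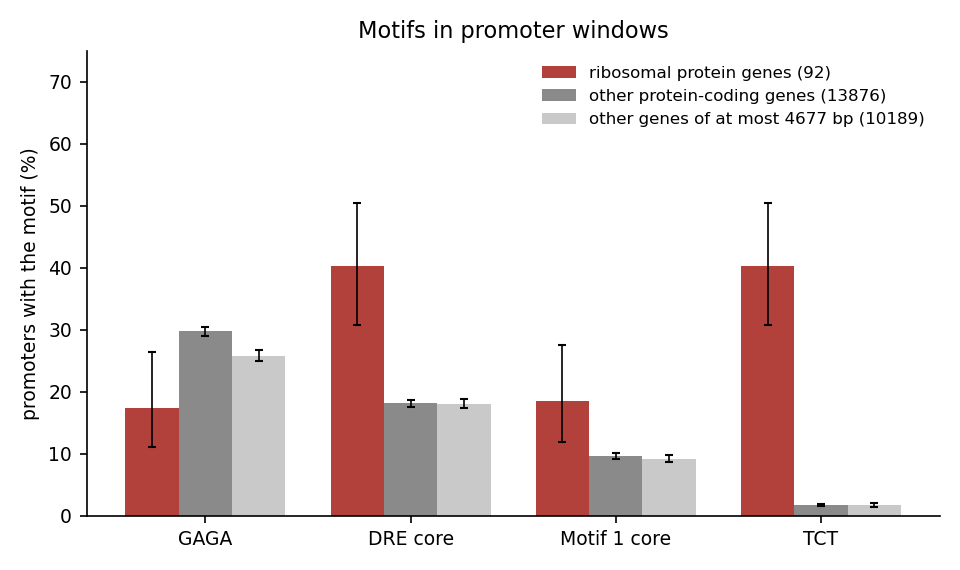
Share of promoters (y axis, %) with each motif, for ribosomal protein genes and for 2 sets of other genes; GAGA, DRE and Motif 1 were searched from 250 bp before to 50 bp from the start on both strands and TCT within 10 bp of the start on the sense strand. Error bars are 95% Wilson intervals; TCT stands at 40.2% in the family and 1.72% in other genes, and GAGAG at 17.4% and 29.8%.

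Other genes of the translation machinery had a like distribution of H4K8ac. All 73 mitochondrial ribosomal protein genes had a mitotic H4K8ac peak and 72 an interphase one, while 3 and 6 had GAF in mitosis and interphase. Of 54 genes of translation factors (eIF, eEF and eRF) 47 had H4K8ac in each stage, with GAF at 6 in mitosis and 12 in interphase. All 20 genes of ribosome biogenesis, such as Fib and Nop56 of the particles that modify ribosomal RNA, were acetylated in both stages, with 1 interphase GAF peak, at Ns1. The 9 genes of RNA polymerase I and its initiation were acetylated too, with GAF at 1 in mitosis and 2 in interphase. The TCT word was rarer than in the family at the mitochondrial ribosomal protein genes, with 1 of 73 (1.37%), beside 1.72% of other genes. At translation factor genes it was in 4 of 54 (7.41%, interval 2.92 to 17.6%), below the family's share but above that of other genes. The DRE core was in 32.9% of promoters of mitochondrial ribosomal protein genes and 48.1% of those of translation factor genes, beside 40.2% in the family. For the core of Motif 1 these shares were 13.7%, 18.5% and 18.5%, so neither core was particular to the family. The cytoplasmic ribosome has 2 further listed components that the symbol rule passes over, sta and Rack1. Both were acetylated in both stages, and Rack1 had GAF in both. Among 5 genes for factors of these promoters (Dref, M1BP, Myc, Trf2 and Trl), all had mitotic H4K8ac and all but Myc interphase H4K8ac. Myc, Trf2 and Trl had GAF peaks in both stages, beside 9.47% of all protein-coding genes outside the family. Of 4 genes found of the 5 listed for growth control (Rheb, S6k, Thor and raptor), all were acetylated in both stages and Thor, which codes for a repressor of translation, had GAF in both.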

How the data were processed

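Per the labels and the methods of the study, the authors trimmed reads with Cutadapt 1.16, mapped them to dm6 with Bowtie2, subtracted input, averaged replicates and called peaks on the mean. The deposited lists hold peak positions (chromosome, start and end in bp) in bins of 50 bp, with no score, count or depth. All 6 lists were read: 4 stage lists and 2 lists of both stages by the authors, which served as alternatives. The H4K8ac file names carry other settings than the methods state, and neighbouring H4K8ac peaks are at least 2000 bp apart (GAF 200 bp).

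Genes came from Ensembl release 115 and sequence from RefSeq, both of the dm6 build. A gene had a peak when at least 1 bp lay on it or within 1 kb. The start of a gene is its outermost 5′ end. Shares carry 95% Wilson intervals. No test was made, because genes are not replicates. Scripts used Python 3.11.15, NumPy 2.4.6, SciPy 1.17.1 and Matplotlib 3.10.9, and were tested on simulated data. Genes named were those with GAF, those lacking H4K8ac, the extremes of H4K8ac peak length and of its difference between stages, RpL32, second copies, and members that share a peak. Of 15 listed second copies 14 were found by symbol. Members, lists and motifs were chosen with earlier results of these data known. Alternatives were other windows, peak lengths, overlaps, comparison genes and the authors' lists. Inputs, raw reads and signal were not analysed here. Values of 1 member are not reported here by name, though it is included in the counts.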

Additional observations from a re-analysis of the deposited data

How the results depend on the processing

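All 28 H4K8ac counts under alternatives stayed within 1.5 times the reported count, at 70 to 88 members. Settings that changed only the comparison genes could not move these counts, and with 87 of 92 reported no count could exceed that limit. The share of other genes did move, for mitotic H4K8ac from 42.3% at a TSS to 63.2% within 2 kb, and for interphase from 42.1% to 65.6%. The lowest share of members in each stage was 80.4%, with peaks of at least 1000 bp (43.4% and 45.9% of other genes). GAF counts moved with the window, since few peaks lie on the genes. The count of members with mitotic GAF (5) was 0 on the gene body alone (7.07% of other genes), 2 within 500 bp (8.54%), 9 within 2 kb (9.78% of members against 11.4%), 1 within 100 bp of a TSS (4.63%), 1 with peaks of at least 400 bp (3.53%) and 1 where the gene's own TSS was nearest to the peak (7.11%). With interphase GAF (11) it was 4 (16.2% of other genes), 6 (19.6%) and 15 (16.3% of members against 26.6%) for the 3 windows, 3 at a TSS (11.6%), 6 with peaks of at least 400 bp (15.1%) and 3 with the own TSS nearest (16%). With GAF of both stages (5) it was 0 (7.02%), 2 (8.40%) and 8 (11.3%), then 1 at a TSS (4.59%) and 1 with longer peaks (3.38%). The counts with the TSS nearest and the comparison at a TSS with genes of at most 4677 bp were chosen after seeing the data. Requiring at least 2 GAGAG left 2 of 92 promoters in place of 16 (2.17%, interval 0.598 to 7.58%), against 9.74% of others. The share among genes of at most 4677 bp, 6.49%, lay inside that interval. The canonical start, chosen after seeing the data, gave TCT in 45 members. The authors' list of GAF peaks of both stages reached 7 members (7.61%, against 14.6% of other genes), adding RpL8 and RpLP0-like. It holds 2362 peaks, while 1552 interphase GAF peaks overlap a mitotic one.

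No paired analysis was possible because the lists pool the replicates, and for the same reason no result without a replicate exists. Peak lists at a fixed threshold do not show how near to it the 5 unacetylated members lay, and mitosis and interphase GAF lists average different numbers of replicates, whose part in the counts was not tested.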
